A study of Rattus norvegicus with 2 samples.

Results

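AMPA and kainate receptors are the fast ionotropic glutamate receptors, and their subunits are encoded by Gria1 to Gria4 and Grik1 to Grik5. These 9 genes were taken by symbol from a table of 21224 gene rows. Each symbol stood on 1 row, all 9 passed the filter of a mean of at least 1 FPKM (reads scaled by gene length and by the total of the library), and all 9 are protein coding by symbol in a RefSeq table of the GRCr8 assembly. The cells were cortical neurons of E18 rat embryos. The siNC group carried a control small interfering RNA, and the siYthdf3 group one against Ythdf3, a reader of the m6A mark on messenger RNA. Each group was 1 library. The labels used here state neither the dose nor the time after transfection nor the number of cultures, and no sample was labelled as hypoxic although the series title concerns hypoxic-ischemic injury.

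Both receptor types are tetramers that open a cation channel when glutamate binds. AMPA receptors carry most of the fast excitatory current at cortical synapses. GluA2, the product of Gria2, sets their calcium permeability, because its messenger RNA is edited by an adenosine deaminase so that an arginine replaces a glutamine in the pore. Kainate receptors act on both sides of the synapse. GluK1 to GluK3, from Grik1 to Grik3, form channels on their own, while GluK4 and GluK5, from Grik4 and Grik5, bind kainate with high affinity and need one of the former to make a working channel.

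The siNC library held 15392218 assigned reads and the siYthdf3 library 22586543. Ythdf3 was lower in the library labelled siYthdf3, with 9.38 FPKM in siNC and 6.93 FPKM in siYthdf3 (ratio 0.739, interval 0.675 to 0.809). Wwtr1, the gene in the series title, was at 2.96 FPKM against 6.23 FPKM. All ratios are siYthdf3 over siNC, and all intervals are exact 95% intervals that cover counting error only, so no difference below has a replicate check. The intervals take each read as an independent molecule. The labels do not state whether copies of 1 molecule were collapsed by molecular identifier, and without that the intervals are too narrow. The pan-neuronal markers Map2 (209 FPKM against 159 FPKM) and Tubb3 (251 FPKM against 260 FPKM) were abundant in both libraries. So were some, but not all, of the progenitor markers, described with the cell markers. In bulk RNA, a change in the number of cells of a type and a change in RNA per cell cannot be told apart.

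Gria1, Gria2 and Gria3 of the 4 AMPA genes and Grik2, Grik3 and Grik4 of the 5 kainate genes were higher in siYthdf3 beyond counting error, by 1.10-fold to 1.47-fold, and Gria4, Grik1 and Grik5 were not apart beyond it. Of the 9 genes, 8 had a log2 ratio above 0, as did 48.1% of all 13172 genes that passed the filter. The counting interval of the FPKM ratio lay above 1 for 6 of the 9 genes (Gria1, Gria2, Gria3, Grik2, Grik3 and Grik4) and below 1 for 0. Over all genes 20% had an interval above 1 and 22.2% below. The share above 1 rose with gene length. In 10 bins of equal size by length it was 3.95% in bin 1, the shortest, 33.6% in bin 9 and 50.8% in bin 10. Gria2 lies in bin 10, and Gria3, Gria4 and Grik2 in bin 9. None of the 9 was 1.5-fold apart in either direction, where 2.41% of all genes were at least 1.5-fold higher and 3.95% at least 1.5-fold lower. At least 2-fold higher were 0.706% of all genes and at least 2-fold lower 0.896%. The median log2 ratio, after adding 0.5 FPKM to each value, was 0.27 over the 4 AMPA genes, 0.14 over the 5 kainate genes and -0.01 over all genes, whose quartiles were -0.17 and 0.14.

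**Figure D1:**
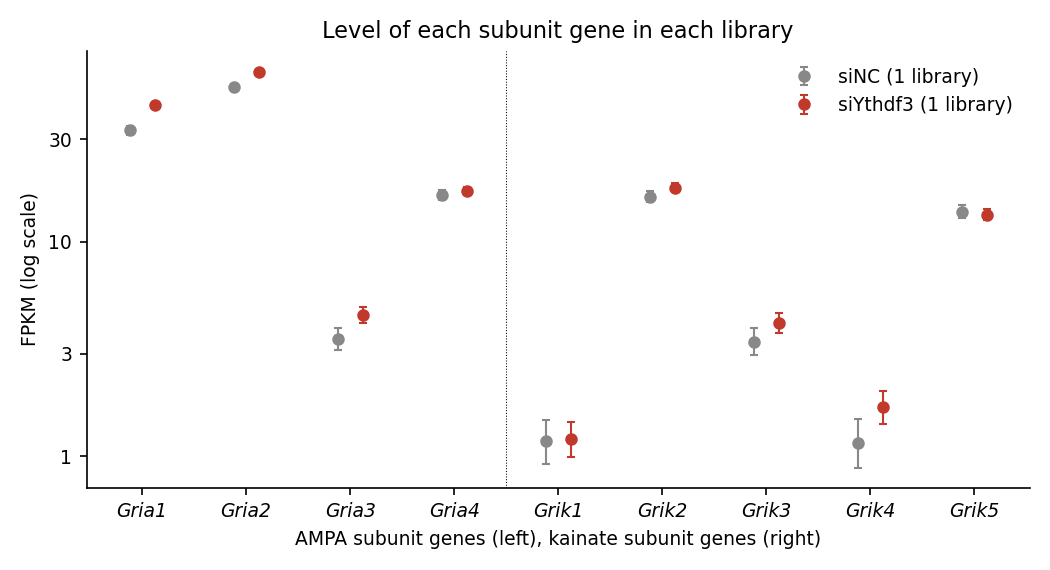
FPKM on a log scale of each AMPA and kainate receptor subunit gene in the siNC library (grey) and the siYthdf3 library (red), with exact Poisson counting intervals as bars. Gria2 and Gria1 stand above all other subunit genes in both libraries, and the intervals of the libraries do not overlap for Gria1, Gria2 and Gria3.

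Gria1 (ENSRNOG00000045816, chromosome 10, 41210713 to 41527283, plus strand, in the coordinates of the deposited table, whose build the labels do not name) encodes GluA1, the subunit whose phosphorylation and synaptic insertion accompany long-term potentiation. It was at 33.0 FPKM in siNC (interval 31.5 to 34.6) and 43.2 FPKM in siYthdf3 (interval 41.7 to 44.7), from 1666 and 3198 reads. The siYthdf3 library was the higher one, and the intervals do not overlap. The ratio was 1.31 (interval 1.23 to 1.39), and 93.9% of all genes had a lower log2 ratio. When all genes were cut by mean level into 10 bins of equal size, 2.13% of the genes in the bin of Gria1 had a log2 ratio at least as high as that of Gria1, and in its bin by gene length 4.33% had.

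Gria2 (ENSRNOG00000054204, chromosome 2, 165947521 to 166069510, minus strand) had the highest level of the 9 genes in both libraries. It was at 52.6 FPKM in siNC (interval 51.3 to 54.0) and 61.3 FPKM in siYthdf3 (interval 60.1 to 62.5), from 5924 and 10134 reads. The ratio was 1.17 (interval 1.13 to 1.20). This is a smaller ratio than that of Gria1, with a ratio between their ratios of 1.12 (interval 1.05 to 1.20). Gria2 lies in the longest of the 10 bins by gene length, where the median log2 ratio was 0.11 and 25.9% of genes had a log2 ratio at least as high as its 0.22. Across all genes, log2 ratio and gene length had a Spearman rho of 0.20, which is a description across genes that share both libraries.

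Within Gria2 and on the same strand, the table lists a separate row for the microRNA precursor Mir2985 (ENSRNOG00000047006, chromosome 2, 165956389 to 165956498), 8868 bases from the downstream end of the gene's span. The RefSeq table of the GRCr8 build holds its mature form, printed here because reads assigned to this row come from inside the most abundant subunit gene, with the seed (bases 2 to 8) in capitals.
rno-miR-2985: uGUUAUAGuaucccaccuaccc
The row had 121 reads in siNC and 174 in siYthdf3 over 110 bases, or 71.5 FPKM and 70.0 FPKM, a ratio of 0.980 (interval 0.773 to 1.25). A stretch of Gria2 of that length held on average 89.1 reads in siNC and 152 in siYthdf3. The library kit selects longer messenger RNA fragments, and reads of the precursor and of the host transcript cannot be told apart here.

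Gria3 (ENSRNOG00000007682, chromosome X, 120238534 to 120502023, plus strand) was the lowest of the AMPA genes. It was at 3.52 FPKM in siNC (interval 3.13 to 3.96) and 4.54 FPKM in siYthdf3 (interval 4.17 to 4.94), from 286 and 541 reads, and the intervals of the libraries do not overlap. Its ratio of 1.29 (interval 1.11 to 1.49) was close to that of Gria1, with a ratio between the ratios of 1.01 (interval 0.866 to 1.19). Gria4 (ENSRNOG00000006957, chromosome 8, 1562119 to 2034979, minus strand) encodes GluA4, a fast-gating subunit known from early postnatal pyramidal cells and from parvalbumin interneurons. It was at 16.5 FPKM in siNC and 17.3 FPKM in siYthdf3, a ratio of 1.05 (interval 0.980 to 1.12), which includes 1. The ratio of Gria4 was below that of each other AMPA gene. Relative to it, the ratio of Gria1 was 1.25 times as high (interval 1.14 to 1.37), that of Gria3 1.23 times (interval 1.05 to 1.45) and that of Gria2 1.11 times (interval 1.03 to 1.20).

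**Figure D2:**
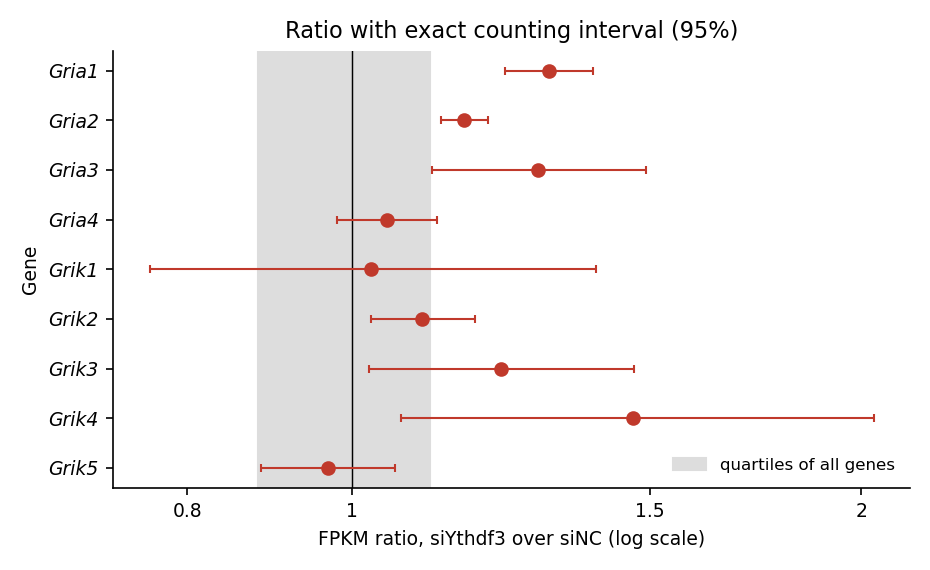
FPKM ratio of siYthdf3 over siNC on a log scale for each subunit gene, with exact counting intervals as bars and the quartiles of the ratio over all genes (0.881 and 1.11) as a grey band. The intervals of Gria1, Gria2 and Gria3 lie above the band, those of Grik2, Grik3 and Grik4 lie above 1 but reach into it, and those of Gria4, Grik1 and Grik5 include 1.

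Among the kainate genes, Grik2 (ENSRNOG00000000368, chromosome 20, 52133851 to 52838375, minus strand) had the highest level. It encodes GluK2, the main channel-forming kainate subunit of principal neurons. It was at 16.2 FPKM in siNC (interval 15.3 to 17.1) and 17.8 FPKM in siYthdf3 (interval 17.1 to 18.6), from 1271 and 2054 reads. The ratio was 1.10 (interval 1.03 to 1.18), a log2 ratio of 0.14, which 21.8% of the genes in its bin by level reached or passed. Grik3 (ENSRNOG00000008992, chromosome 5, 137767865 to 137984307, plus strand), which encodes the low-sensitivity subunit GluK3, was at 3.42 FPKM and 4.19 FPKM, from 193 and 347 reads. Its level intervals overlap (2.95 to 3.94 and 3.76 to 4.65), while its ratio of 1.23 had an interval of 1.02 to 1.47. Grik1 (ENSRNOG00000001575, chromosome 11, 27169740 to 27570645, minus strand), which encodes GluK1, a subunit known from interneurons and sensory neurons, was at 1.17 FPKM and 1.21 FPKM on 75 and 113 reads. Its ratio of 1.03 had an interval of 0.760 to 1.39, so a difference of that size was not detectable at this depth.

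The high-affinity partner genes went apart. Grik5 (ENSRNOG00000020310, chromosome 1, 80605892 to 80667125, minus strand) was at 13.8 FPKM in siNC (interval 12.8 to 14.7) and 13.3 FPKM in siYthdf3 (interval 12.6 to 14.1), from 807 and 1147 reads. Its ratio was 0.969 (interval 0.884 to 1.06), the only one of the 9 below 1, and after rescaling to TPM its log2 ratio was 0.00, so no direction is given for it. Zfp574, on the opposite strand at 80664259 to 80679427, overlaps it and had 346 and 524 reads, at 2.53 FPKM and 2.61 FPKM. Grik4 (ENSRNOG00000030910, chromosome 8, 42905056 to 43193751, minus strand) was at 1.16 FPKM in siNC (interval 0.881 to 1.49) and 1.70 FPKM in siYthdf3 (interval 1.42 to 2.02), and these intervals overlap. Its ratio of 1.47 was the largest of the 9 but rested on 59 and 127 reads, with an interval of 1.07 to 2.03. The ratio of Grik4 was 1.51 times that of Grik5 (interval 1.09 to 2.13). Grik5 also lay below Grik3 (1.26 times, interval 1.03 to 1.55) and Grik2 (1.14 times, interval 1.01 to 1.28). Summed over Grik1 to Grik3, the level was 20.8 FPKM in siNC and 23.2 FPKM in siYthdf3. Grik4 and Grik5 together were at 14.9 FPKM and 15.0 FPKM.

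**Figure D3:**
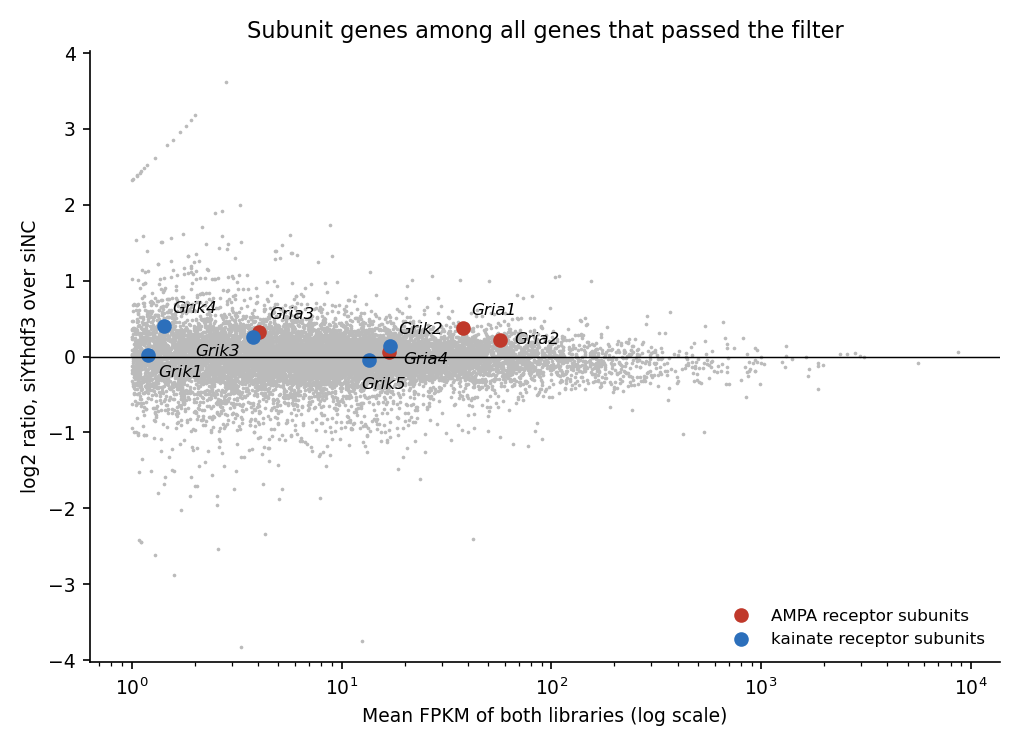
Log2 ratio of siYthdf3 over siNC, after adding 0.5 FPKM, against the mean FPKM of both libraries on a log scale for the 13172 genes that passed the filter (grey), with AMPA genes in red and kainate genes in blue. All 9 lie within the grey cloud, from -0.04 for Grik5 to 0.41 for Grik4.

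Of the 36 pairs of these 9 genes, 12 had a ratio between their ratios whose interval lay above 1, 7 of the 16 pairs within a family and 5 of the 20 across families. In each pair the higher ratio was set over the lower, so an interval below 1 could not occur. These intervals are not adjusted over the 36 pairs, and the same share was not computed for pairs of all genes. Each of the 12 pairs held Gria1, Gria4 or Grik5. The order of levels per length was nearly the same in both libraries. In siNC it ran Gria2, Gria1, Gria4, Grik2, Grik5, Gria3, Grik3, Grik1 and Grik4. Neighbours whose levels did not differ beyond counting error were Gria4 and Grik2 (ratio 1.02, interval 0.941 to 1.10), Gria3 and Grik3 (1.03, interval 0.856 to 1.24), and Grik1 and Grik4 (1.01, interval 0.712 to 1.45). In siYthdf3, Grik2 stood above Gria4 (1.03, interval 0.973 to 1.10), again within counting error, and Grik4 stood above Grik1 by 1.41 times (interval 1.08 to 1.83).

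The make-up of each family was compared as shares of its summed FPKM. Gria2 made up 49.8% of the AMPA sum in siNC (interval 48.8 to 50.9) and 48.5% in siYthdf3 (interval 47.7 to 49.4). The odds of a read falling in Gria2 rather than in another AMPA gene were 0.973 times as high in siYthdf3 (interval 0.922 to 1.03), which includes 1. Gria1 made up 31.3% in siNC and 34.2% in siYthdf3, with an odds ratio of 1.14 (interval 1.07 to 1.22). Gria4 went the other way, from 15.6% to 13.7%, with an odds ratio of 0.874 (interval 0.812 to 0.941). Gria3 made up 3.34% and 3.59%. Thus Gria1 took a larger and Gria4 a smaller part of the AMPA messenger RNA in the siYthdf3 library, by 2.93 and -1.92 percentage points.

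**Figure D4:**
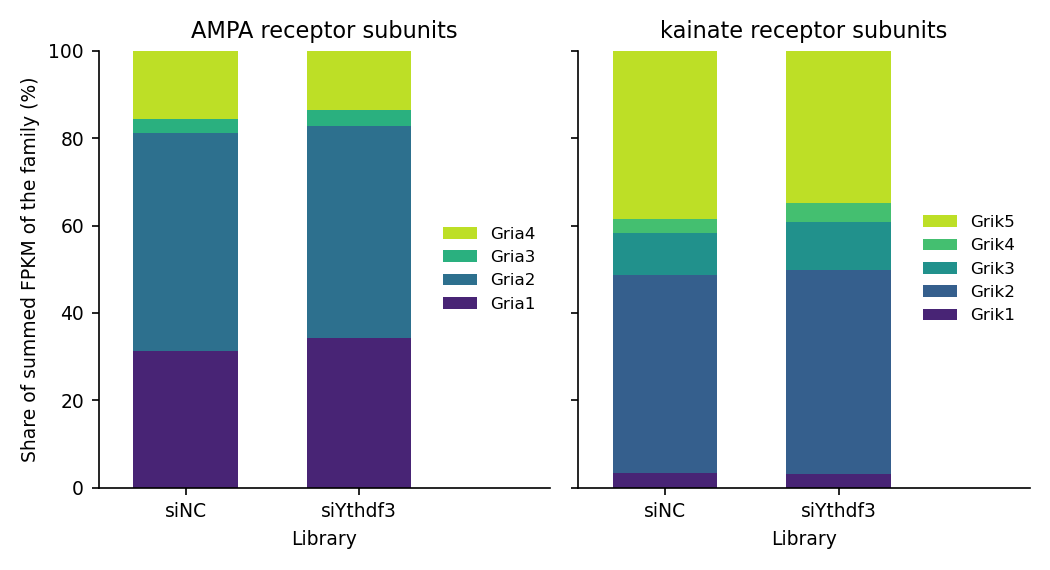
Share in percent of the summed FPKM of each family taken by each subunit gene, AMPA genes on the left and kainate genes on the right, in 1 siNC and 1 siYthdf3 library. Gria2 takes 49.8% and 48.5% of the AMPA sum, and Grik2 with Grik5 takes most of the kainate sum in both libraries.

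In the kainate family Grik2 made up 45.4% of the sum in siNC and 46.7% in siYthdf3, and its odds ratio of 1.06 had an interval that includes 1 (0.953 to 1.17). Grik5 made up 38.5% in siNC and 34.8% in siYthdf3, with an odds ratio of 0.860 (interval 0.770 to 0.961). Grik3 was at 9.57% and 10.9%, Grik4 at 3.24% and 4.44%, and Grik1 at 3.29% and 3.15%. The odds ratio of Grik4 was 1.38 with an interval of 1.00 to 1.92. The AMPA sum was 106 FPKM in siNC and 126 FPKM in siYthdf3, and the kainate sum 35.7 FPKM and 38.3 FPKM. The AMPA sum was thus 2.96 times the kainate sum in siNC and 3.30 times in siYthdf3.

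Pore-forming subunits reach the surface with auxiliary proteins. Of the 18 listed AMPA auxiliary and assembly genes, 17 passed the filter, with a median log2 ratio of 0.12, which was -0.04 at a mean of at least 5 FPKM. The interval lay above 1 for 3 of them and below 1 for 2, beside the 20% and 22.2% of all genes, and 0 were 1.5-fold apart. Cacng4, a transmembrane AMPA receptor regulatory protein (TARP) gene, was the most abundant of the list and stood at 51.0 FPKM in siNC and 35.1 FPKM in siYthdf3 (ratio 0.688, interval 0.654 to 0.724), lower in siYthdf3. Shisa6, which holds AMPA receptors at the postsynaptic density, was at 3.78 FPKM against 2.73 FPKM (ratio 1.38, interval 1.08 to 1.78). Frrs1l, needed for AMPA receptor assembly in the endoplasmic reticulum, was at 3.79 FPKM against 2.83 FPKM (ratio 1.34, interval 1.09 to 1.65). Porcn, an endoplasmic reticulum partner, had a log2 ratio of 0.30 with an interval of the ratio that includes 1 (0.944 to 1.77). Of the genes chosen after their values were seen, Syndig1 had a ratio of 1.21 (interval 1.02 to 1.44) and Prrt1, its relative, of 0.798 (interval 0.651 to 0.977). Cacng2, which encodes stargazin, had a ratio of 1.10 (interval 0.779 to 1.57), and Cnih2, a cornichon that slows AMPA receptor closing, of 0.873 (interval 0.749 to 1.02). Both were also chosen after their values were seen. The summed FPKM of the list went the other way from its median, 120 FPKM in siNC and 109 FPKM in siYthdf3. Without Cacng4 it was 68.6 FPKM and 73.5 FPKM. The kainate receptor auxiliary genes Neto1 and Neto2 had ratios of 1.08 (interval 0.842 to 1.39) and 0.970 (interval 0.887 to 1.06).

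Of 23 listed anchoring, trafficking and clustering partners, 22 were in the table and 19 passed the filter, and the median log2 ratio of these was 0.15. Their interval lay above 1 for 11 and below 1 for 2, beside 20% and 22.2% of all genes. The share above 1 was higher among long genes, at 33.6% in length bin 9 and 50.8% in bin 10. Several of these partners are that long, among them Myo6 (5374 bases), Grip1 (7715 bases) and Dlg1 (7174 bases). The part of gene length in this count was not tested. None was 1.5-fold apart, where 2.41% of all genes were that much higher and 3.95% lower. The largest differences were those of Adam22, the receptor for the secreted synaptic protein Lgi1, at 0.38 on the log2 scale, of the neuronal pentraxin Nptx1, which clusters AMPA receptors, at 0.37, of the motor Myo6 at 0.36 and of Grip1, a scaffold that binds GluA2 and GluA3, at 0.32. Below 1 were the intervals of Dlg1 (ratio 0.909, interval 0.843 to 0.980) and Gripap1 (ratio 0.958, interval 0.922 to 0.996), both chosen after their values were seen. For Pick1, which also binds GluA2 and was picked for naming with its value known, the ratio was 0.904 (interval 0.813 to 1.01).

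All 3 genes of the adenosine deaminase family that edits receptor messenger RNA had an interval above 1, as had 20% of all genes. By gene length, that share was 50.8% in the bin of Adarb1 (7085 bases) and 33.6% in that of Adar (6077 bases). In the bin of Adarb2 (2798 bases) it was 16.5%. Adarb1, the enzyme of the Gria2 pore site, was at 6.21 FPKM in siYthdf3 against 5.11 FPKM in siNC (ratio 1.22, interval 1.10 to 1.35). Adarb2, a family member without known editing activity, was at 12.1 FPKM against 9.24 FPKM (ratio 1.31, interval 1.16 to 1.48), and Adar at 20.0 FPKM against 18.8 FPKM (ratio 1.07, interval 1.004 to 1.13), close to 1 at its lower end. Editing itself cannot be read from a table of gene levels.

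**Figure D5:**
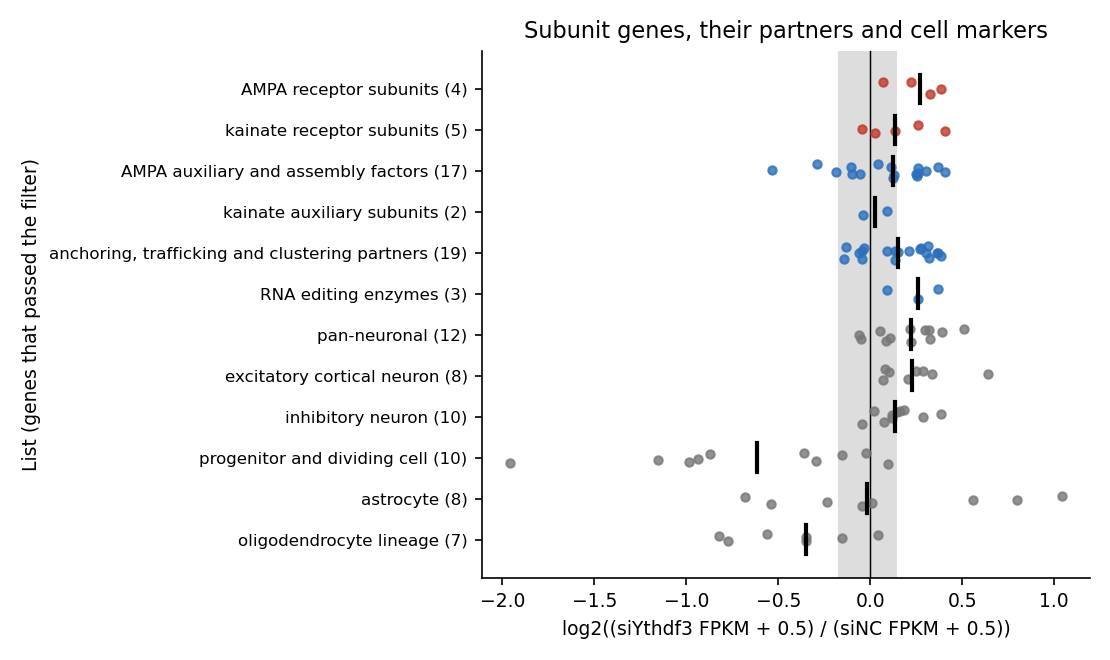
Log2 ratio of siYthdf3 over siNC, after adding 0.5 FPKM, for each gene that passed the filter in lists of subunits (red), partners (blue) and cell markers (grey), with list medians as black bars and the quartiles of all genes as a grey band. To the right of the band lie the medians of AMPA subunits (0.27), RNA editing enzymes (0.26) and anchoring, trafficking and clustering partners (0.15). Those of pan-neuronal markers (0.22) and excitatory cortical neuron markers (0.22) lie there too. To the left lie progenitor and dividing cell markers (-0.61) and the oligodendrocyte lineage (-0.35), and the other medians lie within the band.

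Neuronal markers were higher in the same library by about as much as the subunit genes. The median log2 ratio was 0.22 for the 12 pan-neuronal markers, of which 8 had an interval above 1 and 1 below, and 0.22 for the 9 subunit genes. Over all genes, 20% had an interval above 1 and 22.2% below. The median of the 8 excitatory cortical neuron markers was 0.22, with 5 intervals above 1, and that of the 10 inhibitory neuron markers 0.13, with 4 above. Relative to the summed FPKM of the pan-neuronal markers, the AMPA sum was 9.35% in siNC and 9.76% in siYthdf3, and the kainate sum 3.16% and 2.96%. The part of the neuronal share of the RNA in the subunit differences was not tested.

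The 10 progenitor and dividing cell markers were at a median of -0.61 on the log2 scale, and 8 intervals lay below 1 and 0 above, beside 22.2% and 20% of all genes. Their summed level was 2186 FPKM in siNC and 1448 FPKM in siYthdf3, with none at 0, and Top2a was at 90.8 FPKM and 40.6 FPKM. The oligodendrocyte lineage, whose cells also carry AMPA receptors, gave a median of -0.35 for the 7 of 8 markers past the filter, where 4 intervals were below 1 and 0 above, and summed to 68.9 FPKM and 57.7 FPKM. The 8 astrocyte markers went both ways, with a median of -0.02, 3 intervals above 1 and 2 below. Gfap had a ratio of 2.07 (interval 1.99 to 2.15) and Gja1 of 0.606 (interval 0.550 to 0.667). Microglia markers summed to 7.95 FPKM and 4.04 FPKM, with Cx3cr1 at 0 reads in siYthdf3 and 2 in siNC, too few for a direction. Of the 7 microglia markers 3 passed the filter, where 2 intervals lay below 1 and 0 above. The other of these, P2ry12, was at 0.858 FPKM in siNC and 1.24 FPKM in siYthdf3. Its ratio of 1.45 had an interval that includes 1 (0.987 to 2.15). The vascular and meningeal markers summed to 6.12 FPKM and 4.004 FPKM. Whether these cells had a part in the differences of Gria4 or Cacng4 was not tested.

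Of other receptor genes that passed the filter, the interval lay above 1 for 2 of 4 NMDA and 5 of 10 GABA-A receptor subunit genes and below 1 for 0, beside 20% and 22.2% of all genes. The 4 NMDA receptor subunit genes that passed the filter, of 7, gave a median log2 ratio of 0.40, with Grin2b at 0.73, Grin3a at 0.69, Grin3b at 0.11 and Grin1 at 0.06. The ratios of Grin2b (1.76, interval 1.52 to 2.04) and Grin3a (1.67, interval 1.49 to 1.87) lay above the intervals of Gria1 and Gria2. For GABA-A receptor subunits, 10 of the 15 genes in the table passed, and their median was 0.24, with Gabrg3 at 0.45, Gabrb2 at 0.38 and Gabra2 at 0.36. The delta receptor gene Grid1 had a ratio of 1.22 (interval 1.02 to 1.48). Of 8 metabotropic glutamate receptor genes, Grm3 alone passed it, with a log2 ratio of 0.50. The vesicular glutamate transporter genes Slc17a7 and Slc17a6 were at 0.64 and 0.10, and Slc17a8 had 3 and 8 reads.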

How the data were processed

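RNA from cultured rat cortical neurons was measured in 1 siNC and 1 siYthdf3 library, grouped by sample title. The authors deposited FPKM values per gene, that is reads scaled by gene length and library total, with identifiers, symbols, coordinates and lengths, per the file headers. Tools named by the submitters' processing notes, with no role stated, are the aligner STAR (2.7.6a), the read trimmer fastp (0.23.2), StringTie (2.1.4), edgeR (3.40.2), and featureCounts with Subread (1.5.1). Collapsing by molecular identifier, use of strand, build and annotation are not stated in the labels.

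Multiplying FPKM by length gave whole reads, to within 0.05 of a read, in 100% of values, which returned the assigned reads. Differences are log2 ratios of siYthdf3 over siNC with a pseudocount of 0.5 FPKM added, so that differences of low genes are understated. Of 21224 rows, the 13172 whose mean reached 1 FPKM entered. For an FPKM ratio the 95% interval is the exact Clopper-Pearson one for the siYthdf3 fraction of a gene's reads. Intervals of a level are exact Poisson intervals, and those between genes are exact conditional intervals of the odds ratio of reads. All cover counting error only, with each read taken as an independent molecule. With 1 library per group no test between conditions was possible, and size was read against a 1.5-fold and a 2-fold rule. The computation was checked on simulated data drawn with counting error alone. That check cannot show how the intervals fare with duplicate reads or with differences between cultures.

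The subunit genes, the partner lists and the cell markers were chosen with earlier results of these data known. Named are all 9 subunit genes, Ythdf3 and Wwtr1, and from each list of partners or other receptors up to 4 genes with the largest differences, any gene 1.5-fold apart and all genes of lists of 3 or fewer. From marker lists up to 2 genes are named. Any other gene is marked where it is named, and a few genes that the rule takes are left out here. Alternatives were other pseudocounts and filters, TPM, median centring, thinned siYthdf3 reads, a removed length trend, and sums over rows of a symbol. Calculations used Python 3.11.15, numpy 2.4.6, pandas 2.3.3, scipy 1.17.1 and matplotlib 3.10.9.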

Additional observations from a re-analysis of the deposited data

How the results depend on the processing

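No subunit gene was 1.5-fold or 2-fold apart under any alternative run, all of which added a pseudocount. For Grik4, at a log2 ratio of 0.53 after rescaling to TPM, the pseudocount lowers the value. The 1.5-fold rule without a pseudocount was not run. Of 133 values recomputed, 131 stayed within a set margin. The margin was the counting error of a gene, the typical counting error of 1 gene for a list median, or 1.5 times for counts. Summing rows of a symbol and dropping the filter could not move the subunit values, because each symbol had 1 row and all 9 passed. The number 131 is therefore not a measure of robustness. At a mean of at least 5 FPKM, the number of subunit genes with an interval above 1 was 3 in place of 6, because 4 of the 9 genes fall below that filter. The number was 7 after rescaling to TPM and 5 with thinned siYthdf3 reads, so it depends on scaling and depth. Of the genes not counted on the FPKM scale, Gria4 had the lower end closest to 1, at 0.980. After rescaling to TPM, which moved the median of all genes to 0.04, the log2 ratio of Gria2 was 0.27 in place of 0.22. The AMPA median ranged from 0.22 to 0.33 and the kainate median from 0.05 to 0.19. The log2 ratio of Grik5 ranged from -0.07 to 0.00, and the median of the AMPA auxiliary list was -0.04 at a mean of at least 5 FPKM, so neither kept its sign under these alternatives. The genes on fewest reads, Grik1 and Grik4, are limited by depth. No paired analysis was possible because each group has 1 library.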

Other observations

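The table also lists rows on the opposite strand inside other kainate genes. Inside Grik2, a row named Ubxn2a (ENSRNOG00000065514, chromosome 20, 52408176 to 52409580) had 26 reads in siNC and 28 in siYthdf3, and inside Grik1, LOC102549158 had 6 and 4. Both were chosen after their values were seen. Of the partner genes below the filter, C1ql3, which encodes a secreted synaptic organiser, was at 0.736 FPKM in siNC and 1.06 FPKM in siYthdf3. It had 38 and 80 reads and a ratio of 1.43 (interval 0.964 to 2.17), and was likewise chosen after its values were seen. C1ql2 had 0 reads in siNC and 2 in siYthdf3.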
